A study of Mus musculus with 10 samples.

Results

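The 6 cartilage collagen genes Col2a1, Col9a1, Col9a2, Col9a3, Col11a1 and Col11a2 were read in the periotic tissue of mouse embryos that lacked Tbx1 in the mesoderm. They were found by their gene symbol in the annotation of the array, and each had 1 probe set, so that 6 of 19938 measured genes are described. The tissue was the otic vesicle, the epithelial sac that becomes the inner ear, together with the mesenchyme around it, dissected at embryonic day 12.5. The 5 mutants were conditional Tbx1 knockouts made with T-Cre, a recombinase that acts in the early mesoderm, and the 5 controls were conditional Tbx1 heterozygotes that carried T-Cre too. Tissue of both ears of an embryo was pooled, and each embryo had an array of its own (Affymetrix Mouse Gene ST 1.0). Both groups kept Tbx1 in the otic epithelium, and the controls had 1 fewer working allele in the mesoderm than a wild type, which was not part of the study.

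Cartilage gets its tensile strength from a thin fibril built of collagen types II, IX and XI. Type II collagen is a homotrimer of the Col2a1 product and makes up most of the fibril. Type XI, a heterotrimer of the Col11a1 and Col11a2 products with a chain encoded by Col2a1, sits in the core and limits the width of the fibril. Type IX, a heterotrimer of the products of Col9a1, Col9a2 and Col9a3, decorates the fibril surface and has gaps in its triple helix. In the ear these genes are known from the otic capsule, the cartilage that the periotic mesenchyme lays down around the inner ear, and later from the tectorial membrane of the cochlea. SOX9, with SOX5 and SOX6, is known to activate type II, IX and XI collagen genes in chondrocytes.

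The members lie on 6 chromosomes, so none of them shares a locus with another. Start-site windows of 300 bases (250 before and 50 after the start) were taken from the RefSeq starts at hand, which covered 4 of the 6 genes. Col2a1 and Col9a3 had no entry among those starts, so no window of theirs was searched. The windows below belong to the pair of genes that varied most alike over the arrays, Col9a1 and Col9a2, and to the pair that varied least alike, Col11a1 and Col11a2. Capitals mark matches on either strand to GGGCGG (the GC box core), to CCAAT (the CAAT box) or to TATAAA (the TATA box).
Col9a1 upstream start, GRCm38.p6 chr1:24177360-24177659, plus strand: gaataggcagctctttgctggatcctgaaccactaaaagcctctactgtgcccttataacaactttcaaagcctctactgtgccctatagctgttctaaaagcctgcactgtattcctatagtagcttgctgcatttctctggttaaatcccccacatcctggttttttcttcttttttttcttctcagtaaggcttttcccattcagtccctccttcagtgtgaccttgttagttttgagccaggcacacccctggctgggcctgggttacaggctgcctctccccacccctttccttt
Col9a2, GRCm38.p6 chr4:121039316-121039615, plus strand: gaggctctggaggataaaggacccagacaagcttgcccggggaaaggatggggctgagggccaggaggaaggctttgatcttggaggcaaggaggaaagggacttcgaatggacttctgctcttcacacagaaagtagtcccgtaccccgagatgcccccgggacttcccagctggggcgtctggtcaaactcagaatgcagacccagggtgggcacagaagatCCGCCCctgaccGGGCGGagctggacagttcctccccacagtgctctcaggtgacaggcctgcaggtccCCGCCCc
Col11a1, GRCm38.p6 chr3:114030290-114030589, plus strand: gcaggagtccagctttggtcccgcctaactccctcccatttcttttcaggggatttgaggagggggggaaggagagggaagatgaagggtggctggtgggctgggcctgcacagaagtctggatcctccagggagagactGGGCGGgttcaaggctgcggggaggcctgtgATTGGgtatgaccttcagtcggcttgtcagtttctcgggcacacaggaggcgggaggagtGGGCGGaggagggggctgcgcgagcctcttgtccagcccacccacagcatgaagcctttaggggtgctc
Col11a2, GRCm38.p6 chr17:34038888-34039187, plus strand: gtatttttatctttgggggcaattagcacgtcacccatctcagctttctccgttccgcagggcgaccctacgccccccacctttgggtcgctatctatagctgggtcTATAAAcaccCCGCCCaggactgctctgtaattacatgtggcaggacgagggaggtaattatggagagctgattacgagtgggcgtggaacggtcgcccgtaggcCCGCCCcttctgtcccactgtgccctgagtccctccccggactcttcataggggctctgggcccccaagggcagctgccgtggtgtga
GGGCGG was found 3 times in the Col9a2 window and 2 times in each of the Col11a1 and Col11a2 windows, and 35.7% of all 32851 windows in the table hold it. CCAAT was found once in the Col11a1 window (37.4% of all windows), and TATAAA once in the Col11a2 window (13.6%). The SOX-type words ACAAAG (18.7% of all windows) and ACAAT (31.0%), and the E-box CACGTG (7.15%), were searched on both strands and matched none of the 4 windows. No marked match overlaps another. RefSeq lists a second, downstream start for Col9a1, known to give a shorter chain in the eye, whose window held 1 CCAAT and none of the other words. The sources used here do not say which part of a transcript its probe set reads.

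All signals are log2 RMA values, a scale on which 1 unit is a doubling, and a level is compared only between arrays for the same gene. Every value of the 6 collagens, 7.28 or higher, lay above 4.36, the highest reading of a Y-linked gene in a female embryo. Tbx1, the targeted gene, had a level of 7.83 ± 0.36 in mutant embryos and 8.71 ± 0.31 in control embryos (SD, n = 5 each). Its adjusted p in limma was 0.451 and its exact permutation p 0.0159. Any 2 arrays correlated at 0.984 or more over the 21789 probe sets with 1 gene symbol. Immediate early genes split them by the replicate number of the labels, with Fos at 8.82 to 9.08 in numbers 1 to 3 and at 5.49 to 5.91 in numbers 4 and 5, and both groups have arrays on both sides of that split. By Xist and Y-linked genes the mutants were 4 females and 1 male and the controls 3 females and 2 males.

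The 6 cartilage collagens were all lower on average in the mutants, by 0.23 to 0.53 on the log2 scale, and none of them passed the test across all probe sets. The mean of the 6 differences was -0.39 and their median -0.42, against a median of -0.0021 over all 19938 genes. A mean below that of the controls is common, being found in 50.9% of all genes. Limma with Benjamini-Hochberg adjustment called 0 of the 6 at 0.05, where it called 0.01% of all genes in either direction. At an unadjusted p under 0.05, 4 of the 6 were lower, against 3.11% of all genes. The 6 are not independent observations, since they varied together over the arrays (mean r 0.85). They were also chosen with earlier results of these data known. Fewer cells that make a transcript and less transcript per cell cannot be told apart in such bulk tissue.

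Col2a1, the chain of the main fibril collagen, differed most. Its log2 signal was 10.70, 10.93, 10.55, 11.01 and 10.29 in mutants 1 to 5, against 11.22, 11.45, 11.11, 11.30 and 11.05 in controls 1 to 5. The groups did not overlap, and the margin was small: the highest mutant, number 4, lay just under the lowest control, number 5. Of all genes, 0.552% were lower in every mutant than in every control, and Col2a1 was the 1 collagen of the 6 among them. It averaged 10.70 ± 0.29 in the mutants and 11.23 ± 0.16 in the controls (SD, n = 5 each). The log2 difference was -0.53 ± 0.12 (SE), which is 69.3% of the control level (95% interval 57.8 to 83.2%), with a limma adjusted p of 0.569. The exact two-sided permutation p of 0.00794 is the smallest that 5 arrays against 5 can give. Of the 19938 genes, 17, Col2a1 included, had a difference as low or lower.

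**Figure D1:**
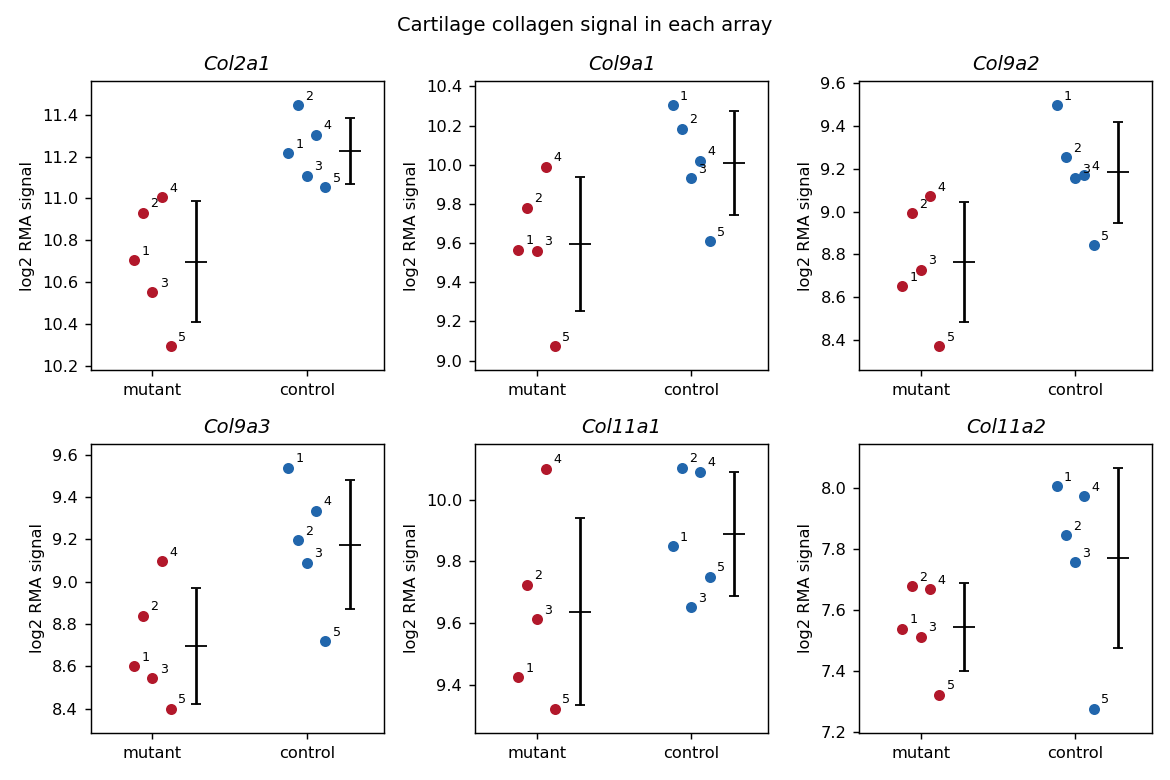
Log2 RMA signal of each collagen (vertical axis, scaled to each gene) in the 5 mutant and 5 control arrays, numbered by replicate; the dash and bar beside each group give the mean and SD. The mutants lie below all controls for Col2a1, while the groups overlap for the other 5 genes, and array 5 is low in both groups.

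The 3 chains of type IX collagen were lower by similar amounts. Col9a1 read 9.57, 9.78, 9.56, 9.99 and 9.07 in mutants 1 to 5 and 10.30, 10.18, 9.93, 10.02 and 9.61 in controls 1 to 5. Mutants 1, 3 and 5 lay below every control, and control 5 lay among the mutants. The log2 difference was -0.42 ± 0.16 (SE), or 75.0% of the control level (interval 59.2 to 95.0%), with a limma adjusted p of 0.575 and an exact permutation p of 0.0635.

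Col9a2 read 8.65, 8.99, 8.73, 9.07 and 8.37 in mutants 1 to 5, against 9.50, 9.25, 9.15, 9.17 and 8.84 in controls 1 to 5. Without control 5 the groups would not overlap, since the 4 other controls lay above the highest mutant. Its difference was -0.42 ± 0.14 (SE), or 74.8% of the control level (interval 60.9 to 91.8%), with a limma adjusted p of 0.569 and an exact permutation p of 0.0397.

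Col9a3 read 8.60, 8.84, 8.55, 9.10 and 8.40 in mutants 1 to 5, against 9.54, 9.20, 9.09, 9.33 and 8.72 in controls 1 to 5. Here mutants 1, 3 and 5 lay below every control, and mutant 4 stood level with control 3. The difference was -0.48 ± 0.15 (SE), or 71.8% of the control level (interval 57.2 to 90.1%), with a limma adjusted p of 0.569 and an exact permutation p of 0.0476.

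The chains particular to type XI collagen had the differences nearest to 0 of the 6, and their 95% intervals included 0. With the replicate number as a block the intervals were -0.43 to -0.07 for Col11a1 and -0.41 to -0.04 for Col11a2, and neither gene passed the threshold (limma adjusted p 0.404 and 0.412). Col11a1 read 9.43, 9.72, 9.61, 10.10 and 9.32 in mutants 1 to 5, against 9.85, 10.10, 9.65, 10.09 and 9.75 in controls 1 to 5. Mutant 4 was as high as the highest controls, whereas mutants 1, 3 and 5 lay below all of them. The difference was -0.25 ± 0.14 (SE), or 84.0% of the control level (interval 68.6 to 102.8%), with a limma adjusted p of 0.662 and an exact permutation p of 0.143.

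Col11a2 read 7.54, 7.68, 7.51, 7.67 and 7.32 in mutants 1 to 5, against 8.01, 7.85, 7.76, 7.98 and 7.28 in controls 1 to 5. Control 5 had the lowest value of all 10 arrays, and the 4 other controls lay above every mutant. The difference was -0.23 ± 0.13 (SE), or 85.4% of the control level (interval 70.5 to 103.4%), with a limma adjusted p of 0.674 and an exact permutation p of 0.159. Without control 5 it was -0.35, and in the arrays numbered 4 and 5 alone it was -0.13.

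Taken by replicate number, the mutant was below the control of its own number in all 5 pairs for Col2a1 and the 3 type IX genes and in 4 of 5 pairs for Col11a1 and Col11a2. The pairs of Col2a1 differed by -0.51, -0.51, -0.56, -0.30 and -0.76 for numbers 1 to 5. For Col9a3 the pair numbered 1 had the widest gap, -0.94, and the pair numbered 4 the narrowest, -0.24. The exceptions were small: number 4 for Col11a1 (0.01) and number 5 for Col11a2 (0.05). Number 4 gave the smallest gap for Col2a1 and each type IX gene. How many of all genes were lower in all 5 pairs was not counted. The labels do not say that the numbers are pairs.

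**Figure D2:**
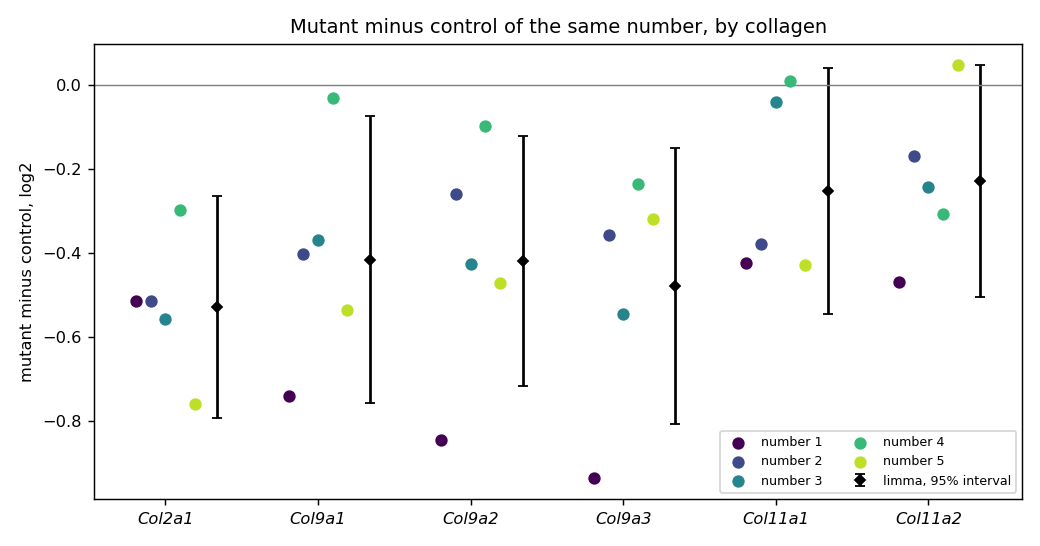
Log2 difference between the mutant and the control of the same replicate number (coloured points) for each collagen, with the limma estimate and its 95% interval beside them (black). All points lie below 0 for Col2a1 and the type IX genes, from -0.03 to -0.94, and 1 point lies just above 0 for each type XI gene.

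Whether the split by replicate number altered the differences was tested as an interaction. In the arrays numbered 1 to 3 the mean difference over the 6 genes was -0.45, and in those numbered 4 and 5 it was -0.29. Col2a1 had -0.53 in both. For Col9a3 the values were -0.61 and -0.28, an interaction of 0.33 ± 0.31 (SE, interval -0.35 to 1.02), and the limma adjusted p was 1.00 for each of the 6 genes. The intervals of all 6 interactions included 0 and were wide.

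The collagens were next compared with each other within arrays, to see whether some differed by more than others. The difference of Col2a1 was 0.28 further below 0 than that of Col11a1 (exact permutation p = 0.0159) and 0.30 further than that of Col11a2 (exact p = 0.0476). Col9a3 stood 0.25 further below 0 than Col11a2 (exact p = 0.0317). Adjusted over the 15 pairs of genes these 3 values each became 0.238, so no pair of collagens differed beyond the threshold. The ratio of Col9a1 to Col9a2 differed least between the groups among the 15 pairs: it was 0.83 ± 0.09 on the log2 scale in the mutants and 0.83 ± 0.07 in the controls (SD, n = 5 each), a change of 0.00359.

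The 6 genes varied together from embryo to embryo. Over the 10 arrays the Pearson correlation of the 15 pairs of genes ranged from 0.65 to 0.98, with a mean of 0.85, and Spearman's rho ranged from 0.58 to 0.99. The permutation p of r, adjusted over the 15 pairs, was at most 0.0436, and that of rho was at most 0.0883, with Col11a1 and Col11a2 the pair at both limits. Col9a1 and Col9a2 were the most alike (r = 0.98, rho = 0.98), followed by Col9a2 and Col9a3 (r = 0.96) and by Col9a1 and Col9a3 (r = 0.95, rho = 0.99). Col11a2 followed Col9a3 (r = 0.91) more closely than Col11a1 (r = 0.65), the chain it is assembled with, although the difference between these correlations was not tested. Without the 2 arrays farthest from the median of the gene on the x axis, r lay between 0.48 and 0.96.

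To leave out the difference between the groups, the deviations of each array from its group mean were correlated as well. Their r ranged from 0.55 to 0.97 with a mean of 0.80, and from 0.91 to 0.97 among the 3 type IX genes. For scale, the same mean was taken within each of the other gene lists described here. It was 0.92 for immediate early genes, and the rest ran from 0.75 for skeletal muscle markers to -0.02 for hypertrophic cartilage and bone. In the 6 arrays numbered 1 to 3, r of the signals was between 0.70 and 1.00. The 4 arrays numbered 4 and 5 are too few for a correlation of single pairs. The 6 values of an array share its dissection and its RNA.

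**Figure D3:**
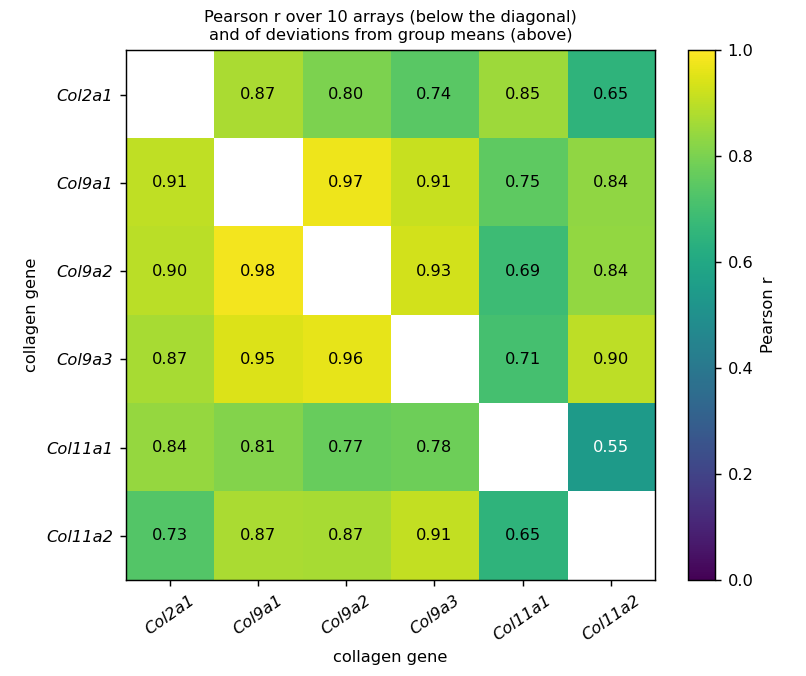
Pearson correlation of each pair of collagens over the 10 arrays (below the diagonal) and of the deviations from the group means (above it); colour runs from 0 to 1. The block of the 3 type IX genes holds the highest values, 0.91 to 0.98, and the lowest are those of Col11a1 with Col11a2, 0.65 and 0.55.

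The same embryos stood at the ends for most of the genes. Mutant 5 had the lowest signal of its group for all 6 collagens and control 5 for 5 of them. Mutant 4 had the highest signal of the mutants for 5 of the 6. Control 1 led the controls for 4 genes, the 3 type IX chains and Col11a2, and control 2 for Col2a1 and Col11a1. The mean log2 signal of the 6 genes was 8.80 in mutant 5 and 9.49 in mutant 4, against 9.21 in control 5 and 9.74 in control 1. Within each group this span exceeded the mean difference between the groups. Without both arrays numbered 5 the mean difference was -0.38.

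Across all genes with at least the median signal, 9969 in number, the pattern of the 6 collagens was compared with every other by the Pearson correlation of deviations from the group means over the 10 arrays. As a description with no test, 2.09% of the 9969 genes had r above 0.8 with the mean of the 6, and the median r was 0.14. The collagens are part of that mean, and Col9a1, Col9a2 and Col9a3 ranked in places 1, 3 and 4, while Col2a1 came 43rd, Col11a2 68th and Col11a1 149th. The 10 named genes outside the 6 that were most alike were Gstt3 (0.96), Mia (0.94), Mrln (0.94), P3h4 (0.94), Ctsb (0.93), Matn1 (0.93), Matn4 (0.93), Smoc2 (0.93), Lman1 (0.93) and Cav1 (0.93). Among them Mia, a small secreted cartilage protein, and the matrilins Matn1 and Matn4, adaptor proteins of the cartilage matrix, are known from cartilage. P3h4 takes part in the hydroxylation of collagen, and Lman1 is a cargo receptor of the secretory pathway. Mia had a log2 difference of -0.56, Matn1 -0.61 and Matn4 -0.40, whereas Gstt3 (-0.06), Ctsb (-0.05) and Lman1 (0.03) varied with the collagens within groups and differed little between them. Mrln had -0.26, Smoc2 -0.16 and P3h4 -0.15, and Cav1 was higher on average in the mutants (0.18). The 5 genes that ran most against the collagens were Mab21l1 (-0.92), Chga (-0.92), Trp53i11 (-0.91), B3gnt5 (-0.91) and Chd7 (-0.90).

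Other genes of the cartilage matrix went the same way, with 0 of 18 past the threshold. Of the 18 non-collagen matrix genes, 16 were lower on average in the mutants, against 50.9% of all genes, with a median difference of -0.22. At an unadjusted limma p under 0.05, 4 of the 18 were lower, against 3.11% of all genes. These 18 genes are not independent, since they too varied together (mean r 0.50 over the 10 arrays). Mia had a level of 6.93 ± 0.32 in mutant embryos and 7.49 ± 0.35 in control embryos (SD, n = 5 each). Otor, a secreted relative of Mia made in the ear, had a difference of -0.32 ± 0.10 (SE), Cspg4, a membrane proteoglycan, -0.32 ± 0.10, and Chad, chondroadherin, -0.39 ± 0.17. Acan, the aggrecan core protein, averaged 7.48 ± 0.48 in mutants and 7.92 ± 0.38 in controls (SD, n = 5 each), a difference of -0.44 ± 0.22 (SE). The mean signal of these 18 genes followed that of the 6 collagens over the 10 arrays, with r = 0.95 and rho = 0.94 (permutation p adjusted over 19 lists 0.000760 and 0.00342). Without the 2 farthest arrays r was 0.92, and within the arrays numbered 1 to 3 it was 0.96.

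Chondrogenic regulators, with Sox9, Sox5 and Sox6 among them, had differences nearer to 0 in the median. Sox9 averaged 9.94 ± 0.08 in mutants and 10.08 ± 0.19 in controls (SD, n = 5 each), a difference of -0.14 ± 0.08 (SE). Its partners Sox5 and Sox6 had differences of -0.06 ± 0.10 and -0.09 ± 0.09 (SE). Of 13 chondrogenic regulators 11 were lower on average, with a median of -0.09 and 0 past the threshold. The members of smallest p were Wwp2 (-0.32 ± 0.11, SE), a ubiquitin ligase that is a target and partner of SOX9, then Nkx3-2 (-0.33 ± 0.13) and Pax1 (-0.32 ± 0.13), transcription factors of early chondrogenesis, and Foxc2 (-0.28 ± 0.16). Whether these differences are smaller than that of Col2a1 was not tested.

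**Figure D4:**
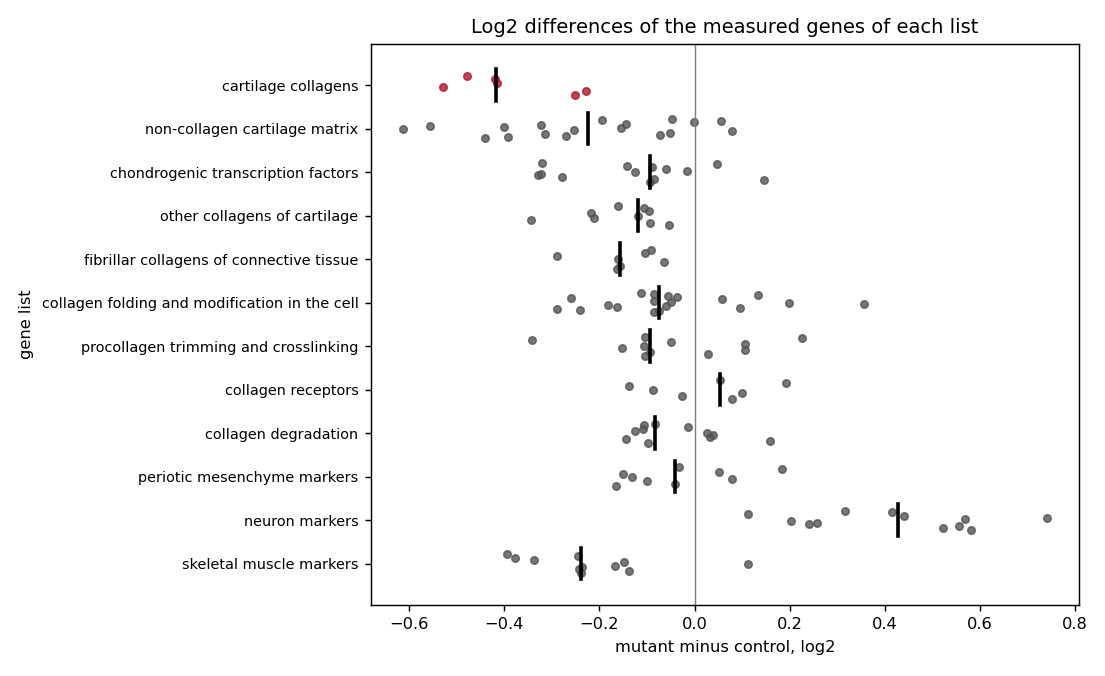
Log2 difference between mutants and controls for every measured gene of 12 lists (points; the 6 collagens in red), with the median of each list as a black bar. The collagens lie furthest below 0 as a list (median -0.42) and the neuron markers furthest above it (median 0.43).

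Collagens outside the 6 were also lower on average. All 9 other collagens known from cartilage or its border were lower on average (median -0.12) and 0 passed, among them Col27a1 (-0.22 ± 0.10, SE), a fibrillar collagen of cartilage, and Col16a1 (-0.21 ± 0.11), which associates with fibrils. The difference furthest below 0 in that list was that of Col14a1 (-0.34 ± 0.20, SE), also a fibril-associated collagen, which lay beyond those of Col11a1 and Col11a2. Col10a1, the collagen of hypertrophic cartilage, had a difference of -0.05 at a low signal, 5.19 in mutants and 5.24 in controls on average. Over the 10 arrays the mean of these 9 genes followed that of the 6 collagens, with r = 0.84 and rho = 0.85 (adjusted permutation p 0.0151 and 0.0179). All 7 fibrillar collagens of connective tissue were lower too (median -0.16), with 0 past the threshold. Col5a1, a partner of type XI chains in some fibrils, had -0.29 ± 0.12 (SE), and Col1a2, a chain of type I collagen, -0.16 ± 0.11. For hypertrophic cartilage and bone, Ibsp, a bone sialoprotein, averaged 5.00 ± 0.56 in mutants and 6.29 ± 1.32 in controls (SD, n = 5 each), and Pth1r, a receptor for parathyroid hormone, had a difference of -0.24 ± 0.10 (SE).

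Genes that fold, modify and export procollagen split in direction. Of 19 measured, 14 were lower and 5 higher in the mutants, 0 passed in either direction, and the median was -0.08. P4ha1, a subunit of the prolyl hydroxylase that stabilises the triple helix, averaged 9.99 ± 0.18 in mutants and 9.63 ± 0.19 in controls (SD, n = 5 each), a difference of 0.36 ± 0.10 (SE). Crtap, which helps hydroxylate a single proline of fibrillar collagens, averaged 9.54 ± 0.20 in mutants and 9.83 ± 0.06 in controls. Every mutant lay below every control for Crtap, as for 0.552% of all genes. Plod2, a lysyl hydroxylase, had -0.26 ± 0.10 (SE), Sec23a, a coat protein of export vesicles, 0.13 ± 0.05, and Serpinh1, the collagen chaperone, -0.11 ± 0.09. For Sec23a every mutant lay above every control, so the list held 1 gene without overlap in each direction. How many of all genes were higher without overlap was not counted. Within groups this list followed the collagens, and 10 of its 18 genes with at least the median signal had an r of deviations above 0.8 with the mean of the 6. Over the 10 arrays the mean of the 19 genes had r = 0.80 and rho = 0.75 with the collagens (adjusted permutation p 0.0191 and 0.0552), 0.68 without the 2 farthest arrays and 0.67 within the arrays numbered 1 to 3.

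Outside the cell the differences were mixed. Of 11 genes for procollagen trimming and crosslinking 7 were lower (median -0.09, 0 past the threshold). Pcolce2, an enhancer of the protease that trims procollagen, averaged 6.89 ± 0.22 in mutants and 7.24 ± 0.05 in controls (SD, n = 5 each). Its groups did not overlap, as for 0.552% of all genes in that direction. Tll1, one of the trimming proteases, had a difference of 0.23 ± 0.12 (SE), Loxl1, a crosslinking oxidase, -0.15 ± 0.10, and Adamts14, a procollagen N-proteinase, -0.10 ± 0.08. Of 7 collagen receptors 3 were lower and 4 higher (median 0.05, 0 past the threshold). Itga10, the integrin chain of chondrocytes that binds type II collagen, had a difference of -0.09 ± 0.08 (SE), and its partner chain Itgb1 0.05 ± 0.05. Of the other integrin chains that bind collagen, Itga2 had 0.19 ± 0.08 (SE) and Itga11 -0.14 ± 0.15, and Ddr2, a receptor kinase for fibrillar collagen, had -0.03 ± 0.11. Of 11 genes for collagen breakdown and its inhibitors 7 were lower (median -0.08, 0 past the threshold), with Adamts5, an aggrecan-cutting protease, at 0.16 ± 0.13 and Timp2, an inhibitor of matrix proteases, at -0.11 ± 0.09. Within groups the means of these lists also followed the collagens. Their r of deviations was 0.88 for trimming and crosslinking, 0.76 for receptors and 0.79 for breakdown, against 0.92 for the folding list.

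Markers of other cell types that a dissection could hold were read as well, and the signals of neuron and muscle markers varied with the collagens. All 12 neuron markers were higher on average in the mutants (median 0.43), with 0 past the threshold. Their summed linear signal was 7558 to 16188 in the mutants and 5621 to 11033 in the controls. The mean of the 12 ran against that of the collagens, with r = -0.85 and rho = -0.85 (adjusted permutation p 0.0151 and 0.0179), r = -0.80 without the 2 farthest arrays and -0.79 within the arrays numbered 1 to 3. Neurod4 (0.74 ± 0.25, SE) and Elavl4 (0.56 ± 0.22) had the smallest p. Of 11 skeletal muscle markers 10 were lower (median -0.24, 0 past the threshold), with summed signals of 10019 to 16834 in the mutants and 11897 to 17165 in the controls. Their mean followed the collagens, with r = 0.78 and rho = 0.79 (adjusted permutation p 0.0251 and 0.0340), 0.85 without the 2 farthest arrays and 0.83 within the arrays numbered 1 to 3. The part of either tissue in the collagen differences was not tested.

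**Figure D5:**
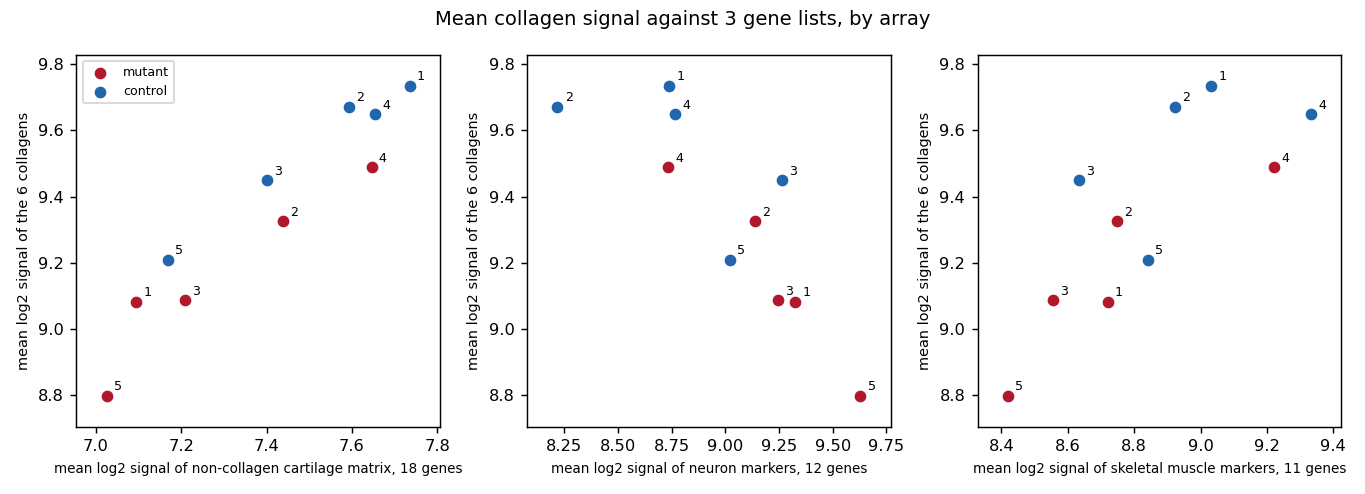
Mean log2 signal of the 6 collagens (vertical axes) against that of the non-collagen matrix genes, the neuron markers and the skeletal muscle markers (horizontal axes) in the 5 mutant and 5 control arrays, numbered by replicate. The collagen mean runs with the matrix and muscle genes (r = 0.95 and 0.78) and against the neuron markers (r = -0.85), and mutant 5 is at the end of each panel.

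Markers of the tissue named by the labels differed in both directions. Of 9 periotic mesenchyme markers 6 were lower (median -0.04, 0 past the threshold), with summed signals of 6041 to 8924 in the mutants and 7067 to 8373 in the controls, and their mean had r = 0.41 with the collagens (rho = 0.18, adjusted permutation p 0.323 and 0.693). Of 15 otic epithelium markers 9 were lower (median -0.03, 0 past the threshold), with summed signals of 3373 to 4268 in the mutants and 4000 to 4738 in the controls. Dlx5 (-0.44 ± 0.19, SE) and Tectb (-0.16 ± 0.07) were lower at an unadjusted p under 0.05, Tectb at a low signal (4.81 in mutants and 4.98 in controls on average). Oc90, the main otoconial protein, had a difference of -0.49 ± 0.32 (SE) and Sox2, a factor of the sensory epithelium, 0.52 ± 0.25, both about as far from 0 as Col2a1. For hindbrain and neural tube 7 of 10 markers were higher (median 0.27, 0 past the threshold), and the summed signal was 1956 to 6040 in the mutants and 1274 to 2639 in the controls. Among the remaining cell types, 5 of 7 endothelial markers were higher (median 0.12), 5 of 5 red blood cell markers lower (median -0.26), 4 of 7 macrophage markers lower (median -0.03) and 3 of 5 notochord markers lower (median -0.04), with 0 past the threshold in each list. No marker in these lists was at or below 4.36 on all arrays.

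The genes next to each collagen on its chromosome were also looked up. Of the 12 nearest measured neighbours, Rxrb, a retinoid receptor gene beside Col11a2, had the difference furthest below 0, -0.23 ± 0.08 (SE, adjusted p 0.575), as large as that of Col11a2 itself. Tmem106c and Senp1, on either side of Col2a1, had 0.10 ± 0.06 and 0.04 ± 0.08 (SE). Ogfr and Tcfl5 beside Col9a3 had 0.05 and 0.11, Smap2 and Zmpste24 beside Col9a2 -0.08 and 0.05, and Fam135a and Col19a1 beside Col9a1 0.19 and -0.06. Both neighbours of Col11a1 were higher in the mutants: Rnpc3 by 0.19 ± 0.08 and Olfm3 by 0.30 ± 0.17 (SE), the difference of largest size among the 12. H2-Oa, the other neighbour of Col11a2, had -0.09. None of the 12 passed the threshold.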

How the data were processed

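RNA of 10 embryos was measured on 10 single-channel arrays, 5 mutant and 5 control, grouped by the sample titles. The authors deposited log2 values, a scale inferred from their range. RMA (background correction, quantile normalization, summary per probe set) is named as the method, and Expression Console 1.1 as the program, per the submitters' processing notes. Arrays have no read depth, and their number limits the precision.

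Probe sets with 1 gene symbol in the platform annotation were tested, 21789 of 35557. Names were updated by gene id through the RefSeq table of GRCm38.p6, which matched 21698, and that table also gave gene order, start-site windows and chromosomes. The probe set with the highest mean stood for each of 19938 genes. The difference between mutants and controls was fitted in limma 3.58.1 (lmFit and eBayes with trend, two-sided tests, Benjamini-Hochberg over 21789 probe sets, threshold 0.05), and single genes were also given an exact permutation test over all 252 splits of the arrays, two-sided. Correlations over arrays had 100000 permutations, adjusted over 15 gene pairs or 19 lists. The fit was also run on simulated data with noise independent between probe sets and arrays. That lacks the shared variation seen in these arrays, so no conclusion is drawn from it here.

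The 6 genes and all lists were chosen with earlier results of these data known. Named are the 6 genes, the members of smallest p in the lists described (4 for folding, trimming, receptors, non-collagen matrix and chondrogenic factors, otherwise 2), Sox9, Sox5, Sox6, Acan, Serpinh1, Itga10 and Ddr2, and the genes most and least like the collagens; predicted names were left out. Of the marker lists, muscle, periotic mesenchyme, hindbrain and those summarised in 1 sentence are given without named genes. Col10a1, Col14a1, Oc90, Sox2 and the chromosomal neighbours were chosen after their values were seen. Nothing in the labels says whether replicates share a litter. Deviations of same-numbered arrays correlated at r = 0.122 to 0.247, and those of other combinations at -0.392 to 0.382. Since each same-number r exceeded 0.1, the numbers were treated as pairs for the pair differences and the block. Some other combinations correlated more closely, so these values do not establish that the numbers are pairs.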

Additional observations from a re-analysis of the deposited data

Results flagged for a closer look

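None of the 6 collagens had an array far from the others of its group by Dixon's ratio for 5 values, and neither did their mean. Among the means of the 19 other lists, 3 groups held such an array: for the chondrogenic transcription factors mutant 5 was low (mean log2 signal 8.08), and for the hindbrain and neural tube markers mutant 5 (8.22) and control 4 (7.28) were high. In all 52 groups of 5 were looked at, and chance marks about 1 in 20 of them. Mutant 5, low in the chondrogenic factors, was also the array with the lowest collagen mean.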

How the results depend on the processing

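The sign of all 6 collagen differences held under each of 20 other settings, and none of the 6 passed the threshold in any. Leaving out single arrays moved the log2 difference between -0.61 and -0.43 for Col2a1, -0.52 and -0.29 for Col9a1, -0.50 and -0.32 for Col9a2, -0.59 and -0.39 for Col9a3, -0.37 and -0.17 for Col11a1, and -0.35 and -0.17 for Col11a2. The mean difference of the 6 lay between -0.47 and -0.30 and was smallest without mutant 5, and their mean pairwise correlation lay between 0.79 and 0.90. When replicate number was a block in the fit, Col2a1 stayed at -0.53 with a limma adjusted p of 0.0849, the lowest for any of the 6 genes in any setting; over the settings its adjusted p ran up to 0.900. The block changed no call and left the mean pairwise correlation of the 6 at 0.85. It gave an unadjusted limma p under 0.05 for 6 of the 6 genes, against 4 without it. Over all 21789 probe sets, in either direction, 2204 were under 0.05 with the block and 1774 without it. Over the whole table limma called 2 probe sets, as it did in 17 other settings, each leave-one-out fit among them. It called 0 when only probe sets with at least the median signal were kept (1254 at an unadjusted p under 0.05), 1 in the arrays numbered 1 to 3, and 0 in the arrays numbered 4 and 5 (975 at an unadjusted p under 0.05), with fewer probe sets or arrays tested in each. Leaving out both arrays numbered 5, and sex as a factor, were chosen after seeing the data and gave mean differences of -0.38 and -0.41. Each collagen had 1 probe set, so averaging several was not possible. The intervals of Col11a1 and Col11a2 included 0 in the main fit and lay below 0 with the block. They also lay below 0 in the arrays numbered 1 to 3 (-0.54 to -0.02 for Col11a1, -0.52 to -0.07 for Col11a2). In the arrays numbered 4 and 5 both included 0 (-0.88 to 0.47 and -0.78 to 0.52). Some fits that left arrays out put 1 of these intervals below 0, such as Col11a2 without control 5 (-0.55 to -0.15).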
